A study of Rattus norvegicus with 16 samples.

Results

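The genes described here encode 6 precursors of sensory and opioid peptides (Tac1, Calca, Calcb, Sst, Penk and Pdyn) and 4 opioid receptors (Oprm1, Oprd1, Oprk1 and Oprl1) in the L4/L5 dorsal root ganglia (DRG) of adult and young rats after nerve injury. They were taken as every Affy_ID, the identifier of a probe set on the Affymetrix rat array used, annotated with 1 of these 10 symbols and no other. This gave 18 Affy_IDs of the 31042 that were tested. In spared nerve injury (SNI) the common peroneal and tibial branches of the sciatic nerve were ligated and cut and the sural branch was left whole, while in sham animals the nerves were only exposed. All rats were Sprague-Dawley, and DRG were taken 7 days after surgery. The adult rats were males of 2 months, and the young rats were operated on at 10 days and were 17 days old at collection. There were 3 arrays each of adult sham, adult contralateral (the uninjured side of SNI rats), adult SNI and young sham, and 2 each of young contralateral and young SNI. Each array held RNA pooled from 3 adult rats (6 DRG) or 4 young rats (8 DRG), so the spread between arrays is a spread between pools.

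Peptidergic nociceptors are the small sensory neurons that carry signals of tissue damage and release substance P, made from the Tac1 precursor, and calcitonin gene-related peptide (CGRP), made from Calca or Calcb. Their peptides act on blood vessels and immune cells in the periphery and on dorsal horn neurons in the spinal cord. Opioid peptides, cut from the Penk and Pdyn precursors, act on receptors coupled to inhibitory G proteins and dampen transmitter release from the same terminals, and somatostatin, from Sst, is inhibitory too.

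Values are log2 GC-RMA levels, a scale on which a difference of 1 is a doubling. Groups were compared with limma over all Affy_IDs, and an Affy_ID is called when its Benjamini-Hochberg adjusted p is under 0.05. Of the 18 Affy_IDs, 10 were above a log2 value of 4 in every array, and 7 were at or below 4 in every array, near the floor of the method. The remaining one, Pdyn 1383294_at, was above 4 in 1 array only. Levels of different Affy_IDs are not compared, since each has probes of its own.

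Markers of sensory neurons were high in every array, as the tissue label says, with a mean of 9 genes of 12.6 to 12.95 in 15 arrays. The mean was lower, 11.95, in young SNI replicate 2, an array that stood apart and touches most of the young SNI values. In young SNI replicate 2, 9 of the 18 Affy_IDs lay outside the range of the other 15 arrays, and so did 27.6% of all Affy_IDs. The mean of 9 oligodendrocyte markers was 10.87 there against 5.28 to 5.83 elsewhere, and the mean of 7 markers of central neurons was 6.74 against 2.08 to 2.56. The mean of 7 nociceptor markers was 9.21, against 10.41 to 11.11 in the other 15 arrays. There are only 2 young SNI arrays, so differences of young SNI from its controls are given with and without this one where it moves them. Signal of skeletal muscle varied widely in the other arrays, also within groups. The mean of 4 muscle markers was 4.39 to 13.73 in those 15 arrays, with 10.02, 4.39 and 12.97 in adult sham. Its part in the values of the members was not tested. The markers of injured sensory neurons separated adult SNI (mean of 8 genes 10.74 to 10.93) from the adult controls (5.34 to 6.73), but not the young groups as labelled. Their mean was 9.18, 10.72 and 7.37 in the 3 young sham arrays, 8.78 and 5.32 in the 2 young contralateral arrays, and 7.61 and 10.15 in the 2 young SNI arrays. Sprr1a, a gene induced in cut sensory neurons, was at 9.58 to 9.97 in adult SNI and 2.22 to 2.80 in the adult controls. In the young arrays it was at 8.24, 9.92 and 3.50 in those labelled sham, 7.56 and 2.22 in contralateral, and 4.30 and 9.57 in SNI. Xist, which is transcribed from the inactive X chromosome of females, was at 2.32 to 2.57 in the 9 adult arrays and at 9.77 or above in 5 of the 7 young ones, so age and the sex of the pooled animals cannot be fully told apart.

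**Figure D1:**
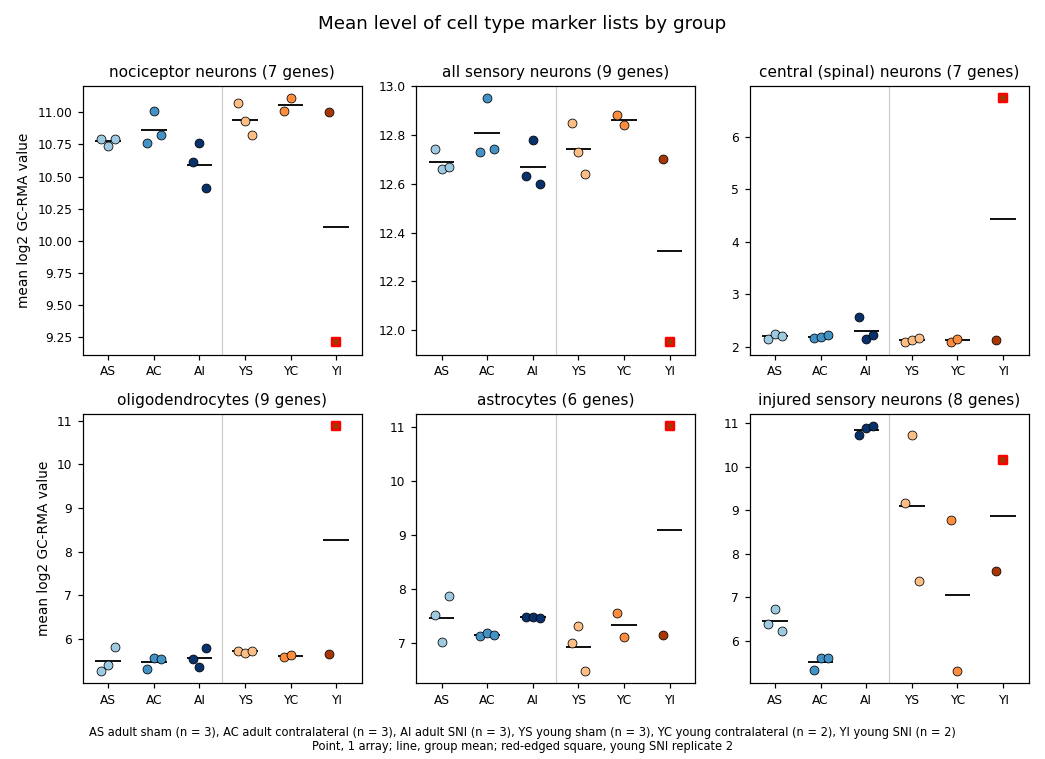
Mean log2 GC-RMA value of 6 lists of cell type markers (vertical axis) in each array, by group (horizontal axis, with n = 3 arrays in 4 groups and n = 2 in young contralateral and young SNI). Each point is 1 array and each line a group mean. Young SNI replicate 2, the red-edged square, lies at 10.87 for oligodendrocytes and 6.74 for central neurons, far above the other 15 arrays. It lies at 9.21 for nociceptors and 11.95 for all sensory neurons, below them.

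The precursors of substance P and CGRP were strongly hybridised in every group and did not pass the test in any comparison. Tac1 (1369309_a_at) had log2 values of 12.65, 12.49 and 12.41 in adult sham, 12.07, 12.62 and 12.18 in adult contralateral, and 12.15, 12.48 and 12.00 in adult SNI. In young rats it had 12.62, 12.03 and 12.56 in sham, 12.41 and 12.57 on the contralateral side, and 12.45 and 11.20 in SNI. The adult SNI values lay within or just under the control range, and 1 young SNI array lay below every other array. Adult SNI minus adult sham was -0.31 (95% confidence interval -0.93 to 0.31, adjusted p = 0.994), and adult SNI minus adult contralateral was -0.08 (-0.70 to 0.54, adjusted p = 0.909). The lower bounds of these intervals lie above a 2-fold lower level of Tac1 in injured adult DRG.

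Calca, from which CGRP alpha and calcitonin are made by alternative splicing, is on the array with 3 Affy_IDs. At 1370775_a_at it had 14.69, 14.68 and 15.01 in adult sham, 14.80, 15.01 and 14.74 in adult contralateral, and 14.77, 14.72 and 14.59 in adult SNI. The young values were 15.07, 14.73 and 14.68 in sham, 14.88 and 14.90 contralaterally, and 14.86 and 13.08 in SNI. All arrays but young SNI replicate 2 lay within 14.59 to 15.07. The second Affy_ID, 1369116_a_at, was also lowest in young SNI replicate 2, at 9.36 there and 11.48 to 12.47 elsewhere. The third, 1369117_at, stayed between 2.24 and 2.46 and gave no level above the floor. At 1370775_a_at adult SNI minus sham was -0.10 (-0.82 to 0.62, adjusted p = 1.0) and adult SNI minus contralateral was -0.16 (-0.88 to 0.56, adjusted p = 0.837).

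Calcb, the gene of CGRP beta, had 11.83, 12.15 and 12.11 in adult sham, 12.05, 12.40 and 11.83 in adult contralateral, and 11.78, 12.05 and 11.47 in adult SNI (1370562_at). In young rats it had 12.02, 11.43 and 11.67 in sham, 11.71 and 11.84 contralaterally, and 11.87 and 9.55 in SNI. The adult SNI arrays overlapped both controls, and the low young value again came from replicate 2. Adult SNI minus sham was -0.26 (-1.23 to 0.71, adjusted p = 1.0).

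In young SNI the means of all 3 genes were lower than in the controls, and that difference rested on 1 array. Against young sham the log2 difference was -0.58 for Tac1 (adjusted p = 0.847), -0.86 for Calca (adjusted p = 0.837) and -0.997 for Calcb (adjusted p = 0.844). Without young SNI replicate 2 these differences were 0.05, 0.03 and 0.16, with an adjusted p of 1.0 for each and 1 young SNI array left. Nociceptor markers and the wider list of sensory neuron markers were both lower in that array than in the other 15, as given above. Here and in the rest of these bulk samples, fewer cells of a type and less RNA per cell cannot be told apart.

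The reference table held 7 windows before the transcription start of members, 1 each of Tac1, Calca, Sst, Pdyn and Oprd1 and 2 of Oprm1. They were searched for cyclic AMP response elements (CRE) and AP-1 sites, and the 2 shown, of Tac1 and Calca, are those with a match. The 250 bases upstream of the annotated start, from RefSeq (GRCr8), are chr4:36645333-36645582 on the plus strand for Tac1 and chr1:178317530-178317779 on the minus strand for Calca, written 5′ to 3′ along the gene with matches to the searched motifs in capitals.
Tac1: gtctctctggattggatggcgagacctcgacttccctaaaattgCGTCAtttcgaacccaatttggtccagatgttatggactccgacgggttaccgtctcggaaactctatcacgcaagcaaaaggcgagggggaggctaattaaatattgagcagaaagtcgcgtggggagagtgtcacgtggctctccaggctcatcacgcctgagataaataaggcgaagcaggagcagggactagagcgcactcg
Calca: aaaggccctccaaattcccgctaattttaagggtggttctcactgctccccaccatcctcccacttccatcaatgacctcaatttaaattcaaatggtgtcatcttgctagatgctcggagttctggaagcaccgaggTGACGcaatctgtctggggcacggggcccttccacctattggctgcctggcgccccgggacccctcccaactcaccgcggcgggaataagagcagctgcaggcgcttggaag
Both strands were searched for the CRE (TGACGTCA), its core (TGACG, which the full CRE contains) and the AP-1 site (TGANTCA). Each of the 2 windows shown held 1 core and neither of the other motifs, and none of the 3 sets of letters was in the other windows. Only the 250 bases before each annotated start were searched. Sites further upstream, past that start or near another start of the same gene, Sst included, would be missed. Counted from the annotated start, the Calca match begins at base -112 and the Tac1 match, on the opposite strand, at base -206. Of 33360 such rat windows, 18.2% held the core, 1.59% the full CRE and 6.35% the AP-1 site. A match of these letters is a description of the window and not a measured binding site.

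Sst was lower in most adult SNI arrays without passing the test. Its values (1367762_at) were 9.41, 9.23 and 9.53 in adult sham, 9.18, 9.83 and 9.06 in adult contralateral, and 8.61, 9.20 and 8.63 in adult SNI. Of the adult SNI arrays 2 lay below all 6 adult controls and the other one among them. The difference was -0.58 against sham (-1.17 to 0.01, adjusted p = 0.703) and -0.54 against contralateral (-1.13 to 0.05, adjusted p = 0.573). Young values were 8.96, 9.33 and 8.69 in sham, 9.27 and 8.94 contralaterally, and 8.60 and 9.41 in SNI, a spread in which no group stood apart, and young SNI minus sham was 0.01 (-0.65 to 0.67, adjusted p = 0.996) and -0.39 without replicate 2 (-1.15 to 0.36, adjusted p = 1.0). Young SNI replicate 2 was inside the range of the other arrays for Sst.

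Penk, the proenkephalin gene, was the member whose adult SNI arrays all lay below the adult controls. Its log2 values (1367949_at) were 8.08, 7.52 and 7.72 in adult sham, 8.24, 7.43 and 7.92 in adult contralateral, and 7.39, 6.67 and 6.65 in adult SNI. The highest adult SNI array was just under the lowest control array (7.39 against 7.43). Among the 18 Affy_IDs it was the only one with this pattern, which 2.58% of all Affy_IDs showed. Group means were 6.9 ± 0.42 (SD, n = 3) in adult SNI, 7.77 ± 0.28 in adult sham and 7.86 ± 0.41 in adult contralateral, the last 2 of which differed by less than their spread. Adult SNI minus sham was -0.87, a 1.83-fold lower level (-2.24 to 0.50, adjusted p = 0.908), and adult SNI minus contralateral was -0.96 or 1.95-fold lower (-2.33 to 0.41, adjusted p = 0.732). The differences were the same but the intervals narrower without young SNI replicate 2, which enters the shared variance, at -1.47 to -0.27 (adjusted p = 0.271) and -1.56 to -0.36 (adjusted p = 0.148). Penk therefore passed the test against neither control. In the same arrays the injured neuron markers were higher, as given above, the mean of 6 macrophage markers was 5.0 to 5.48 against 3.98 to 4.72 in the adult controls, and the nociceptor mean was 10.41 to 10.76 against 10.74 to 11.01. The mean of the central neuron markers was near the floor in both (2.14 to 2.56 and 2.14 to 2.24). One of these markers, Gad1, was at 5.20 in adult SNI replicate 1, at 2.63 and 2.69 in the other adult SNI arrays and at 2.38 to 2.76 in the adult controls. The part of these cell types in the Penk values was not tested.

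In young rats Penk had 8.59, 7.98 and 8.65 in sham, 8.40 and 8.54 contralaterally, and 8.40 and 11.70 in SNI. Young SNI replicate 1 was level with the controls and replicate 2 was 3.27 above the mean of the other 6 young arrays. Young SNI minus young sham was 1.64 (0.11 to 3.18, adjusted p = 0.837) with both arrays and -0.01 (-0.86 to 0.85, adjusted p = 1.0) without replicate 2.

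Pdyn, the prodynorphin gene, was above the floor in that array alone. Replicate 2 of young SNI read 6.84 at 1383294_at, where the other 15 arrays read 1.94 to 2.03. The second Affy_ID, 1369882_at, was 2.21 there and 2.01 to 2.14 in the rest. Dynorphin is made by neurons of the spinal dorsal horn, and the same array had the high means of central neuron and oligodendrocyte markers given above, whose part in the Pdyn and Penk values was not tested. Young SNI minus young sham was 2.43 with both arrays (adjusted p = 0.837) and -0.01 without replicate 2 (-0.13 to 0.12, adjusted p = 1.0), a difference between values at the floor.

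**Figure D2:**
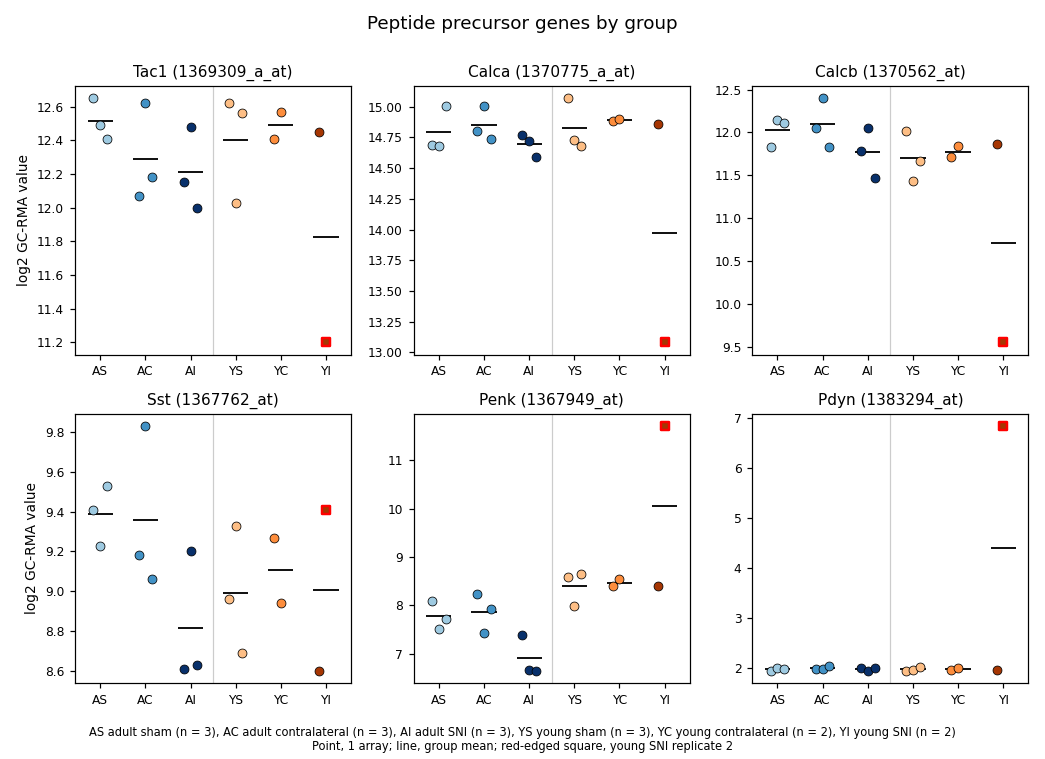
Log2 GC-RMA value (vertical axis) of 6 peptide precursor genes, each at the Affy_ID with its highest mean, in each array by group (horizontal axis). Points are arrays, lines group means and the red-edged square young SNI replicate 2, which is lowest for Tac1, Calca and Calcb and highest for Penk and Pdyn; the 3 adult SNI arrays of Penk (6.65 to 7.39) lie below the 6 adult controls (7.43 to 8.24).

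Of the receptors, the genes of the mu and delta receptors gave no level above the floor. Oprm1, whose product is the main target of morphine, ranged from 1.91 to 2.04 over its 2 Affy_IDs and all 16 arrays. Oprd1, whose receptor prefers enkephalins, ranged from 1.84 to 1.96. At such values neither presence nor absence of the RNA can be read, and no difference between groups was detectable.

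Oprk1, the receptor for dynorphins, was measured at 1 of its 3 Affy_IDs. At 1368197_at it had 6.52, 6.26 and 6.35 in adult sham, 6.79, 6.63 and 6.24 in adult contralateral, and 6.39, 5.80 and 5.44 in adult SNI. Of the adult SNI arrays 2 were below all adult controls and 1 was among them. Adult SNI was lower by -0.50 than sham (-1.0 to 0.0, adjusted p = 0.68) and by -0.68 than contralateral, a 1.6-fold difference (-1.18 to -0.18, adjusted p = 0.283). The second of these was called only when adult SNI replicate 1 was left out (-0.93, adjusted p = 0.0429). Young values were 6.61, 6.76 and 7.07 in sham, 6.43 and 6.86 contralaterally, and 6.46 and 6.47 in SNI, and young SNI minus sham was -0.35 (-0.91 to 0.21, adjusted p = 0.951), and -0.35 without replicate 2 (-1.10 to 0.39, adjusted p = 1.0). Young SNI replicate 2 did not stand apart here. The other Oprk1 Affy_IDs were near the floor, 1387102_at at 1.93 to 2.99 and 1368198_at at 1.78 to 1.85.

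Oprl1, the nociceptin receptor, which is related to the opioid receptors in sequence but does not bind classical opioids, was higher in adult than in young DRG. At 1369646_at it had 9.34, 8.69 and 8.64 in adult sham, 8.86, 8.66 and 8.33 in adult contralateral, and 8.48, 8.47 and 8.33 in adult SNI. In young rats it had 7.96, 7.75 and 7.74 in sham, 7.92 and 8.16 contralaterally, and 7.85 and 7.53 in SNI. All 9 adult arrays lay above all 7 young arrays, as they did for 1.39% of all Affy_IDs and for no other of the 18. By group mean the order was adult sham (8.89 ± 0.39, SD, n = 3), adult contralateral (8.62 ± 0.27), adult SNI (8.43 ± 0.08), young contralateral (8.04 ± 0.17, n = 2), young sham (7.82 ± 0.12) and young SNI (7.69 ± 0.23, n = 2). Among neighbours of the same age, young contralateral and young sham differed by 0.22 (adjusted p = 1.0) and the others by less than the larger of their SDs. Adult minus young was 1.07 in sham, a 2.1-fold difference (0.66 to 1.48, adjusted p = 0.0311), 0.58 contralaterally (0.12 to 1.03, adjusted p = 0.367) and 0.74 in SNI (0.28 to 1.195, adjusted p = 0.0867). Only the first was called. Whether the SNI difference departs from the other 2 was tested as the change in the injury response with age. This gave -0.34 against sham (-0.95 to 0.28, adjusted p = 0.903) and 0.16 against contralateral (-0.49 to 0.81, adjusted p = 0.821). The sham and contralateral differences were not tested against each other. Without young SNI replicate 2 the SNI difference was 0.58 (-0.01 to 1.16, adjusted p = 0.532), and the change in the response was -0.50 against sham (-1.21 to 0.22, adjusted p = 1.0) and 0.0 against contralateral (-0.745 to 0.745, adjusted p = 1.0).

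The other Affy_IDs of Oprl1 pointed the same way without passing the test. At 1369645_at adult arrays had 6.59 to 7.52 and young arrays 5.57 to 6.88, and the sham difference was 0.82 (0.12 to 1.53, adjusted p = 0.313). At 1387661_a_at adults had 5.32 to 6.39 and young rats 4.96 to 5.88, with a sham difference of 0.31 (-0.23 to 0.85, adjusted p = 0.71). The call at 1369646_at was close to the threshold: it was lost (adjusted p between 0.0532 and 0.088) without adult sham replicate 1 or 2, adult contralateral replicate 2, or any 1 of the 3 young sham arrays, with a difference of 0.85 to 1.17. Without young SNI replicate 2 it was kept (adjusted p = 0.0232). In the 2 young arrays with Xist at the floor, young sham replicate 2 and young contralateral replicate 1, Oprl1 was 7.75 and 7.92, within the range of the other young arrays. The nociceptor list was at 10.74 to 10.79 in adult sham and 10.82 to 11.07 in young sham, and 4 markers of myelinating Schwann cells at 12.11 to 13.28 and 13.13 to 13.47. Their part in the Oprl1 difference was not tested.

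**Figure D3:**
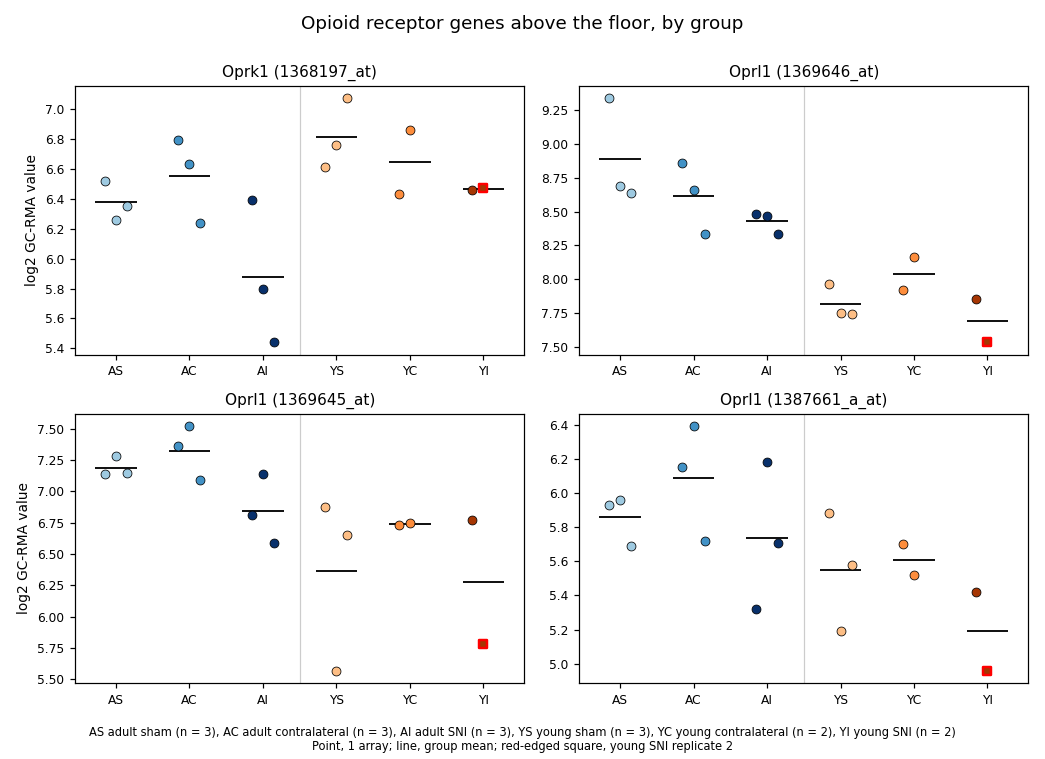
Log2 GC-RMA value (vertical axis) of Oprk1 and of the 3 Affy_IDs of Oprl1 in each array by group (horizontal axis). Points are arrays, lines group means and the red-edged square young SNI replicate 2; at 1369646_at the 9 adult arrays (8.33 to 9.34) lie above the 7 young ones (7.53 to 8.16), and at the other Affy_IDs the ages overlap.

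Over all 18 Affy_IDs, 0 were called by limma in adult SNI against sham, a comparison in which 0.48% of all Affy_IDs were called, and 0 against contralateral, where 1.03% were. At an unadjusted p under 0.05 there were 2 and 1 respectively, all lower in SNI (Oprk1 and Oprl1 1369646_at against sham, and Oprk1 against contralateral), beside 7.33% and 9.83% of all Affy_IDs. Without young SNI replicate 2 there were 3 against sham (Sst, Penk and Oprl1 1369646_at) and 3 against contralateral (Sst, Penk and Oprk1), beside 9.12% and 11.9% of all, and still 0 of the 18 were called, beside 0.722% and 1.38% of all. The median difference of the 18 was -0.11 in each of these 2 comparisons and that of all Affy_IDs was -0.02 and -0.04. Both comparisons use the same SNI arrays, and 7 of the 18 were at the floor. In young SNI 0 were called against sham (0.0161% of all) and 0 against contralateral (0.00966% of all), with 3 (Calca, Penk and Pdyn) and 2 (Calca and Pdyn) at an unadjusted p under 0.05 (5.91% and 5.94% of all), and 0 and 0 without replicate 2. Contralateral minus sham gave 0 calls in adults (0.0% of all) and 0 in young rats (0.0% of all), and also 0 of the 18 at an unadjusted p under 0.05.

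The adult SNI and contralateral arrays of the same number can also be set against each other, since they deviated together from their group means. The labels do not say whether such arrays share animals, so the pairs are inferred from the same data. SNI minus contralateral in the 3 pairs was -0.85, -0.76 and -1.27 for Penk, -0.57, -0.63 and -0.43 for Sst, -0.40, -0.83 and -0.80 for Oprk1 (1368197_at) and -0.27, -0.35 and -0.36 for Calcb. For Oprl1 it was -0.55, -0.38 and -0.50 at 1369645_at and -0.83, -0.21 and -0.01 at 1387661_a_at. At 1369646_at, the Oprl1 Affy_ID of highest mean, it was -0.38, -0.19 and 0.0. For Tac1 it was 0.08, -0.14 and -0.18. Penk, Sst, Oprk1, Calcb and Oprl1 1369645_at and 1387661_a_at were thus lower on the injured side in each pair. Tac1 and Oprl1 1369646_at were not. In all, 11 of the 18 were lower in each pair, 7 of them above a log2 value of 4 in every array and 4 at or near the floor, and 0 were higher in each. Of all Affy_IDs, 33.1% were lower and 16.5% higher in each pair. A limma fit of these 6 arrays alone with the pair as a replicate block, chosen after seeing the data, called 0 of the 18 beside 1.48% of all. The adjusted p was 0.0671 for Sst, 0.0707 for Oprl1 1369645_at, 0.0833 for Penk, 0.0883 for Calcb and 0.112 for Oprk1, and these 5 were the members at an unadjusted p under 0.05, as were 18.8% of all Affy_IDs.

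**Figure D4:**
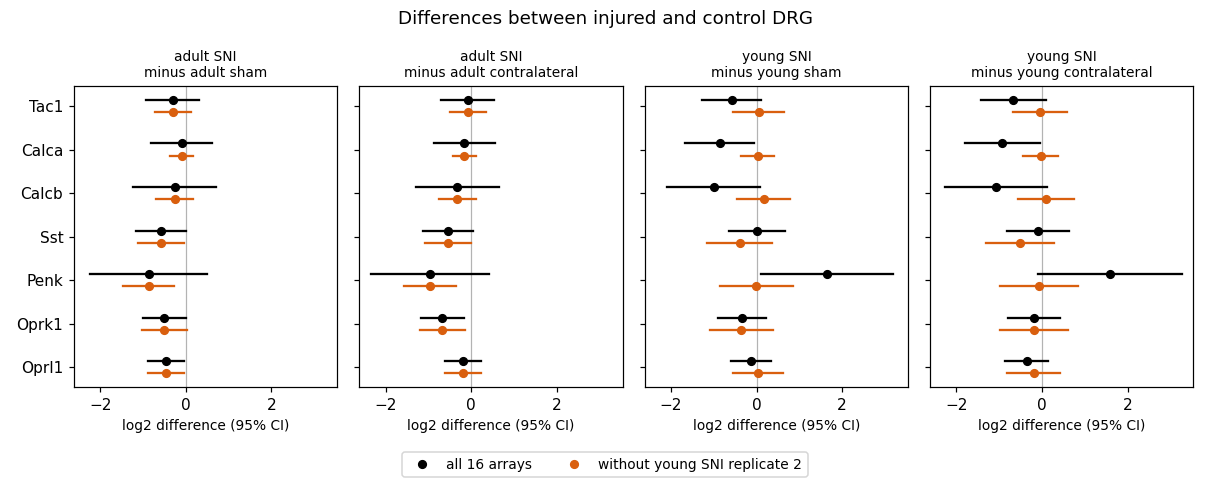
Log2 differences (horizontal axis) of 7 members between SNI and each control with their 95% confidence intervals, in adult and young rats. Black marks are from all 16 arrays and orange marks leave out young SNI replicate 2. The young differences of Tac1, Calca, Calcb and Penk are near 0 in orange. The adult intervals of Tac1, Calca, Calcb and Penk become narrower at the same values, and those of Sst slightly so.

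Between the ages, 1 of the 18 was called in sham (Oprl1, higher in adults), where 0.622% of all Affy_IDs were, and 0 on the contralateral side, where 0.177% were and 1 of the 18 had an unadjusted p under 0.05. In SNI 1 was called, Penk, beside 2.64% of all. Penk was 3.15 lower on the log2 scale in adult than in young SNI (-3.15, -4.68 to -1.61, adjusted p = 0.0417), and without young SNI replicate 2 the difference was -1.50 (-2.35 to -0.64, adjusted p = 0.139) and no longer called. The call was kept without adult SNI replicate 1, young sham replicate 2 or young SNI replicate 1, and lost without each of the other arrays (adjusted p = 0.0501 to 0.139). The adult SNI arrays were at 6.65 to 7.39 and the young SNI arrays at 8.40 and 11.70. How many of all Affy_IDs separate these arrays in this way was not counted. Penk also had lower means in adult than in young sham (-0.63, adjusted p = 0.805) and contralateral DRG (-0.61, adjusted p = 0.809), neither of which passed. With the array number fitted as a replicate block over all 6 groups, the Penk call was lost (adjusted p = 0.084) and Oprl1 was called in its place (0.82, adjusted p = 0.0482).

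The difference of the injury response between ages was called for 0 of the 18, against sham (0.0773% of all) and against contralateral (0.0193% of all), with 1 at an unadjusted p under 0.05 in each, Penk both times. For Penk the adult minus the young response was -2.51 against sham (-4.57 to -0.45, adjusted p = 0.652) and -0.86 without young SNI replicate 2 (-1.91 to 0.18, adjusted p = 1.0). An age difference in the injury response was thus not detectable for these genes at this number of pools. The young response in this test is a difference between groups as labelled. As given above, the markers of injured sensory neurons did not separate those young groups.

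**Figure D5:**
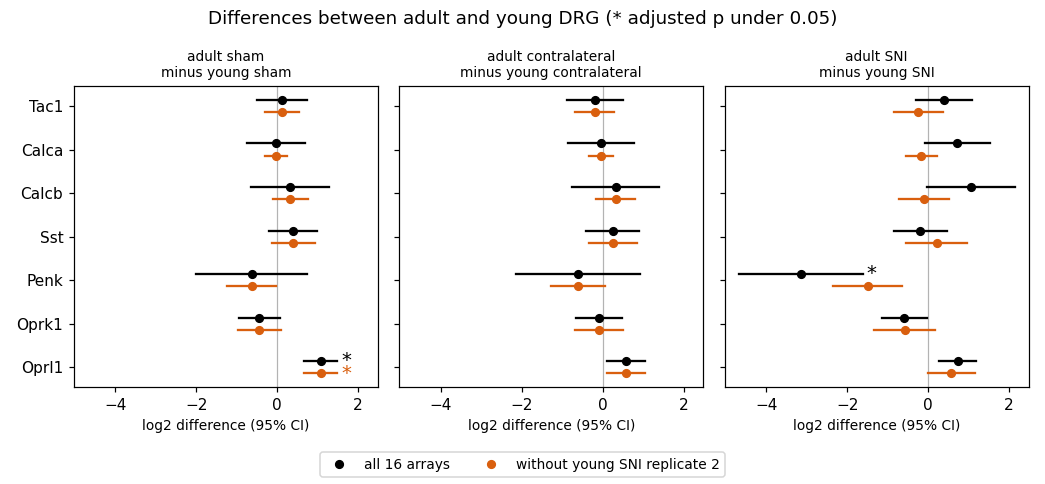
Log2 differences (horizontal axis) of 7 members between adult and young rats with their 95% confidence intervals, in sham, contralateral and SNI DRG. Black marks are from all 16 arrays and orange marks leave out young SNI replicate 2; an asterisk marks an adjusted p under 0.05, reached by Oprl1 in sham in both fits (1.07) and by Penk in SNI only with all arrays (-3.15).

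Other genes of the same pathways were taken from 4 lists. Of 10 genes that cut, amidate or store peptide precursors, 11 receptors of tachykinins, CGRP and somatostatin or their partners, 8 further opioid genes and peptidases, and 16 signalling partners of opioid receptors, 0 were called in any comparison of SNI or contralateral with a control of the same age. At an unadjusted p under 0.05 those of adult SNI against sham numbered 1, 0, 0 and 3 (7.33% of all Affy_IDs), and against contralateral 1, 1, 1 and 3 (9.83%). In young SNI they numbered 0, 2, 2 and 3 against sham (5.91%) and 1, 3, 2 and 3 against contralateral (5.94%). The precursors Pomc (1.85 to 1.95) and, but for 3.82 in young SNI replicate 2, Pnoc (2.18 to 2.30), which encodes the nociceptin that Oprl1 binds, were at the floor.

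Mme (neprilysin), a peptidase that degrades enkephalins and substance P, was lower in adult DRG. It had 7.40, 6.9 and 8.52 in adult sham, 7.40, 7.75 and 7.78 in adult contralateral and 7.62, 7.07 and 8.47 in adult SNI, and 10.31, 10.37 and 10.01 in young sham, 9.99 and 9.93 contralaterally and 10.25 and 9.52 in SNI. Adult values ranged from 6.9 to 8.52 and young values from 9.52 to 10.37. How many of all Affy_IDs separate the ages in this direction was not counted. Adult minus young was -2.62 in sham, 6.16-fold lower (adjusted p = 0.0174), -2.32 contralaterally (adjusted p = 0.0867) and -2.17 in SNI (adjusted p = 0.0363, and -2.53 with adjusted p = 0.093 without young SNI replicate 2). The highest adult values, in adult sham replicate 3 and adult SNI replicate 3, were in the arrays with the highest adult means of the Schwann cell markers (13.28 and 13.16), whose part was not tested. Scg5, a chaperone of the prohormone convertase Pcsk2, was the other gene called in sham, at 12.90 to 13.02 in adults and 12.40 to 12.48 in young rats (0.51, adjusted p = 0.029). By list, in the order given above, 1, 0, 1 and 0 genes were called in sham between the ages, beside 0.622% of all Affy_IDs. The SNI counts were 0, 0, 1 and 1, beside 2.64% of all. In SNI Adcy5, an adenylate cyclase, was called at a level near the floor (2.88 to 3.54 in adults, 4.02 and 4.46 in young rats, -1.10, adjusted p = 0.0488) and not without young SNI replicate 2 (-0.88, adjusted p = 0.349) or with the replicate block (-1.14, adjusted p = 0.0825).

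Over the 15 arrays other than young SNI replicate 2, the genes whose log2 profile was most like that of Oprl1 were Zfp729b (Pearson r = 0.961), Bnip3 (0.955) and Plpp1 (0.951). For Penk they were Atf7ip (0.954), Acvr2a (0.933) and Trib2 (0.927), for Calca Atp1b3 (0.921), Paip2 (0.911) and Commd3 (0.863), and for Calcb Cbfb (0.904), Ttll7 (0.90) and Cd55 (0.889). Among members, Penk and Oprk1 had r = 0.829 over these 15 arrays and Calca and Calcb 0.557. These arrays share their age and injury groups, and each r is a description without a test.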

How the data were processed

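RNA of pooled L4/L5 DRG was hybridised to 1 array per pool. Per the labels and the study's methods, the authors corrected and normalised the scans by GC-RMA, and the deposited values are on the log2 scale with 2 decimals. Neither version, of GC-RMA or of their limma, is given in the sources used here. They removed 2 outlying arrays of young rats, which were not analysed here, nor were the qPCR and immunostaining. Array signal holds no read depth, so the number of pools and the background limit the precision.

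All 31042 Affy_IDs other than 57 controls were fitted with limma 3.58.1 in R 4.3.3, as 6 group means over 16 arrays with empirical Bayes variances (prior degrees of freedom 1.24) and no filter. Each comparison had its own Benjamini-Hochberg adjustment over all Affy_IDs, with 0.05 as threshold. The fit was tested on simulated data. The array annotation gave 1 symbol for 20826 Affy_IDs, several for 436 and none for 9780, and the 18 described matched RefSeq by gene ID. All of them are reported. Where 1 Affy_ID stands for a gene, it is the one of highest mean. Of other lists, genes passing the threshold are named, and as most alike the 3 genes with the highest Pearson r. The members and lists were chosen with earlier results of these data known.

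Same-numbered adult SNI and contralateral arrays deviated together (r = 0.449, 0.445 and 0.362 over Affy_IDs), so these numbers were taken as pairs, from the data and not from the labels. For the other groups of the same age r was -0.508 to 0.2, and it was not computed across ages. The block over all 6 groups thus also ties arrays that shared little or no deviation. Alternatives were each age fitted alone, an intensity trend, a filter (above 4 in at least 2 arrays, 18540 kept), quantile normalization, array weights, the array number as a block over all 6 groups or, added after seeing the data, in the adult SNI and contralateral arrays alone, each array left out, and the other Affy_IDs of a gene.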

Additional observations from a re-analysis of the deposited data

How the results depend on the processing

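Both calls rest on few pools. For adult against young sham the number of called Affy_IDs was 1, and 0 to 1 when 1 array was left out. For adult against young SNI it was 1 in the fit of all arrays, 0 with quantile normalization (Penk, adjusted p = 0.0517), 0 with array weights (adjusted p = 0.128), and 0 to 7 with 1 array left out. Penk was called in that comparison without adult SNI replicate 1, young sham replicate 2 or young SNI replicate 1 and lost without each of the others. The 7 came without young SNI replicate 1, when replicate 2 is the lone array and its spread is taken from the other groups. In that case 6 were called in young SNI against sham and 6 against contralateral, and 5 in each test of the response between ages, against 0 without each of the others (ranges 0 to 6 and 0 to 5). Adult SNI against contralateral ranged from 0 to 1. The contralateral sides of the ages gave 1 (Oprl1) with array weights and 0 otherwise. With the array number as a replicate block over all 6 groups no count changed: 0 Affy_IDs were called in adult SNI against contralateral, 1 in sham and 1 in SNI between the ages, though in SNI a different one. The paired fit of the adult SNI and contralateral arrays alone, chosen after seeing the data, also called 0.

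With 1 array left out, these log2 differences crossed 0, in each case through young SNI replicate 2 at one end and replicate 1 at the other. In young SNI minus sham the lowest and highest were -1.203 and 0.047 for Tac1, -1.747 and 0.033 for Calca, -2.157 and 0.163 for Calcb, -0.007 and 3.293 for Penk, and -0.007 and 4.873 for Pdyn. Against contralateral they were -2.225 and 0.095 for Calcb, -0.07 and 3.23 for Penk, and -0.01 and 4.87 for Pdyn. In adult minus young SNI they were -0.167 and 1.613 for Calca, -0.103 and 2.217 for Calcb, and -4.863 and 0.017 for Pdyn. In the response between ages they were -0.133 and 1.647 for Calca and -4.87 and 0.01 for Pdyn against sham, and -0.127 and 1.653 for Calca against contralateral. At the floor-level Calca 1369117_at, young SNI minus sham was 0.032, adult minus young SNI -0.012, and the response between ages -0.042 and -0.073. For Oprk1, young SNI minus sham was 0.013 at 1368198_at and the response against contralateral 0.395 at 1387102_at. For Oprl1, adult contralateral minus sham was 0.133 at 1369645_at and 0.227 at 1387661_a_at.

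Of 855 alternative values of the 38 differences with an unadjusted p under 0.2, 785 kept direction and side of the threshold, 24 lost and 24 gained the call and 22 changed sign. The other 72 differences had 76 changes of sign in 1531 values. The cause of these changes was not tested. Signals near the floor limit Pdyn, Oprm1 and Oprd1.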
